A study of Mus musculus with 8 samples.

Results

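Knockdown of Mp1 was compared with control shRNAs in mouse embryonic stem (ES) cells cultured with FGF4, on 4 of the 8 Illumina expression arrays of the series, chosen by their titles. All 8 samples were FGF4-/- cells of the R1 mESC line (strain given as 129S1/SV-+p+Tyr-cKitlSl-J/+ with 129X1/SvJ) that carried an shRNA vector. They spent a night in N2B27, a medium without serum, to which Bmp4 was added at 10 ng/ml. The 4 arrays compared came from cells treated with FGF4 at 20 ng/ml for 3 days, which carried either of 2 shRNAs against Mp1 (shMp1Lib on 1 array, shMP1G on 1 array) or either of 2 random control shRNAs (shRnd1 and shRnd2, 1 array each). The remaining 4 arrays, control shRNA cells with LIF at 10 u/ml (2 arrays) or with no growth factor (2 arrays), enter the estimate of the spread, and their levels are given beside some genes. The study's design used 2 shRNAs per condition as its replicates. Separate cultures are not stated for the arrays within a group, so the p-values reflect how far these arrays scatter, and that scatter may be technical. Every result rests on 1 cell line without its own Fgf4, and on 1 array per shRNA.

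Mp1 is the product of Lamtor3. It is a scaffold that holds the kinase MEK1 and its substrate ERK1 on late endosomes, and it is also a subunit of the Ragulator complex, which docks the Rag GTPases and mTORC1 on lysosomes. ES cells make FGF4, which signals through FGF receptors, RAS, RAF, MEK and ERK and moves them out of the naive state towards formative epiblast and later lineages. The comparison asks how the transcriptome of cells given FGF4 differs when Mp1 is targeted. Per the labels, control cells in FGF4 differentiated and cells with either Mp1 shRNA did not.

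A limit on names applies to every count of genes that were higher. Probes were named from a deposited table that does not list all of them, and the probes missing from it were almost all higher with the Mp1 shRNAs. Of the 14103 features tested (1 probe per gene symbol, or 1 unnamed probe), 8933 had a name and 2910 had a probe outside that table. Of these 2910, 2907 (99.9%) lay above 0 for the pair of Mp1 shRNAs against the controls, with a median difference of 0.52 in log2 units, against 4858 (43.4%) and a median of -0.06 among the 11193 features in the table. All 113 features that were over 2-fold higher for the pair were outside it, as were 0 of the 168 that were over 2-fold lower. Genes higher after Mp1 knockdown can therefore hardly be named here, and the named genes described below are mostly lower ones for that reason.

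**Figure D1:**
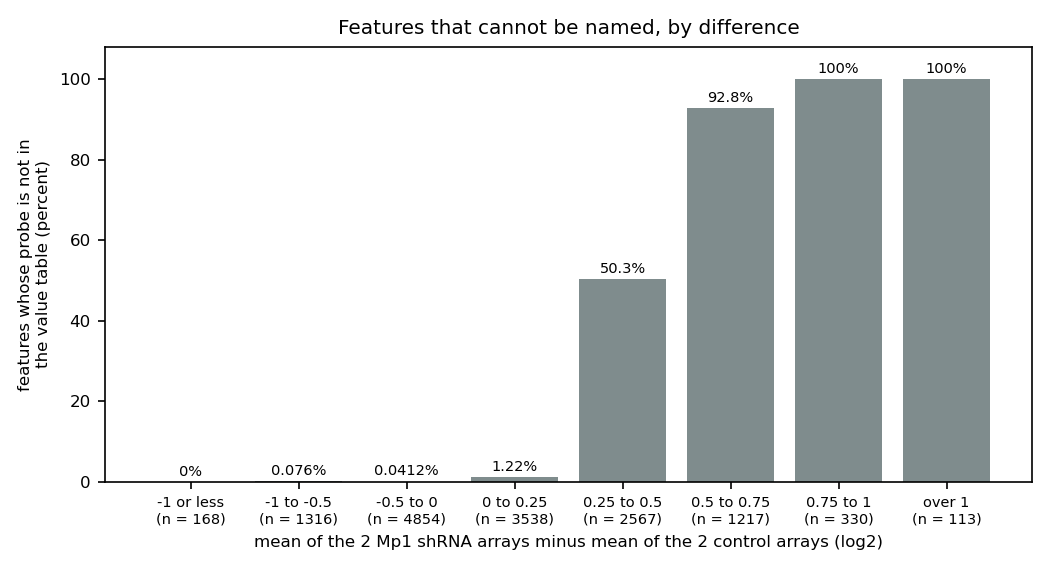
Percent of features whose probe is not in the table that gives the gene names (y axis, percent), by the difference between the mean of the 2 Mp1 shRNA arrays and the mean of the 2 control shRNA arrays in FGF4 (x axis, log2, number of features in parentheses). The share is 0% among features lower by more than 1 log2 unit, 50.3% between 0.25 and 0.5, and 100% above 0.75.

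The knockdown itself could not be checked. Lamtor3 had 1 named probe, and no array detected it above background. Its intensities were 71.2 (shMp1Lib) and 63.0 (shMP1G) on the Mp1 arrays, and 68.8 and 69.4 on the control arrays with FGF4. Markers of ES cells were present, some at similar levels and some not. Pou5f1, the core pluripotency factor, lay between 13.57 and 14.11 on all 8 arrays (normalized log2 level), and Dppa5a between 14.41 and 14.66. Lin28a varied more, from 9.01 to 10.34, as did Tdgf1, from 9.85 to 10.96. Utf1 ranged from 9.79 with no growth factor to 11.75 with shMP1G, with 11.03 for shMp1Lib and 11.46 and 11.37 for the controls in FGF4. All 5 of the 9 ES cell markers with a named probe were detected on every array, while Sox2, Nanog, Sall4 and Zfp42 had no named probe. Of 7 fibroblast markers, all but Thy1 were detected on no array. Between 15375 and 17813 of 45281 probes were detected per array, with the most on the shMp1Lib array. The arrays of the 2 Mp1 shRNAs differed from each other more than those of the 2 controls in FGF4: the root mean square SD over features was 0.438 against 0.213 log2 units, and 28.5% against 5.65% of features differed by over 1.5-fold between the arrays.

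The named genes Myl9, Cxcl16 and Gap43 fell with the Mp1 shRNAs taken as a pair. Myl9, a regulatory light chain of non-muscle and smooth muscle myosin, had levels of 4.79 with shMp1Lib and 5.25 with shMP1G against 8.27 and 7.96 with the control shRNAs in FGF4. Its probe was not well above background on either Mp1 array, so it was at least 6.76-fold lower (adjusted p = 0.00572). The LIF arrays gave 5.16 and 5.24 and the arrays with no growth factor 4.69 and 4.60, also not well above background. FGF4 with a control shRNA was thus the condition in which Myl9 was detected.

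Cxcl16, a membrane-bound chemokine, had levels of 5.96 with shMp1Lib and 6.23 with shMP1G against 7.80 and 7.50 with the controls, and 4.85 to 4.97 on the other 4 arrays. The difference was -1.55 ± 0.19 (SE; adjusted p = 0.0389), and both Mp1 arrays stayed above the arrays without FGF4. Gap43, a growth cone protein of neurons, had levels of 6.35 and 6.31 against 7.75 and 7.60 (difference -1.34 ± 0.17, adjusted p = 0.0389). For Gap43 the LIF arrays were near the controls in FGF4, at 7.48 and 7.51, and the arrays with no growth factor were near the Mp1 arrays, at 6.55 and 6.42. The Mp1 and control arrays did not overlap for any of the 3 genes. As a pair result, Cxcl16 passed under 3 of 15 alternatives (adjusted p from 0.00541 to 0.582), Gap43 under 6 of 16 (0.00552 to 0.582) and Myl9 under 10 of 15 (0.00247 to 0.376), the highest p in each case with only the FGF4 arrays. Cxcl16 and Gap43 did not pass with arrays scaled by their medians (0.0723 and 0.178) or without any 1 of the control arrays.

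In all, 9 features were higher (0.0638% of the 14103 tested) and 5 lower (0.0355%) for the pair, by limma's moderated test with Benjamini-Hochberg adjustment, and 2027 (14.4%) had an unadjusted p under 0.05. No higher feature was named. These calls depended on single arrays: the count was 28 without the shMp1Lib array, 2841 without the shMP1G array, 0 without either control array in FGF4, 2 without either LIF array and 0 without either array with no growth factor. Without a control array in FGF4, Myl9 had an adjusted p of 0.0877 (shRnd1 left out) or 0.0897 (shRnd2 left out).

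**Figure D2:**
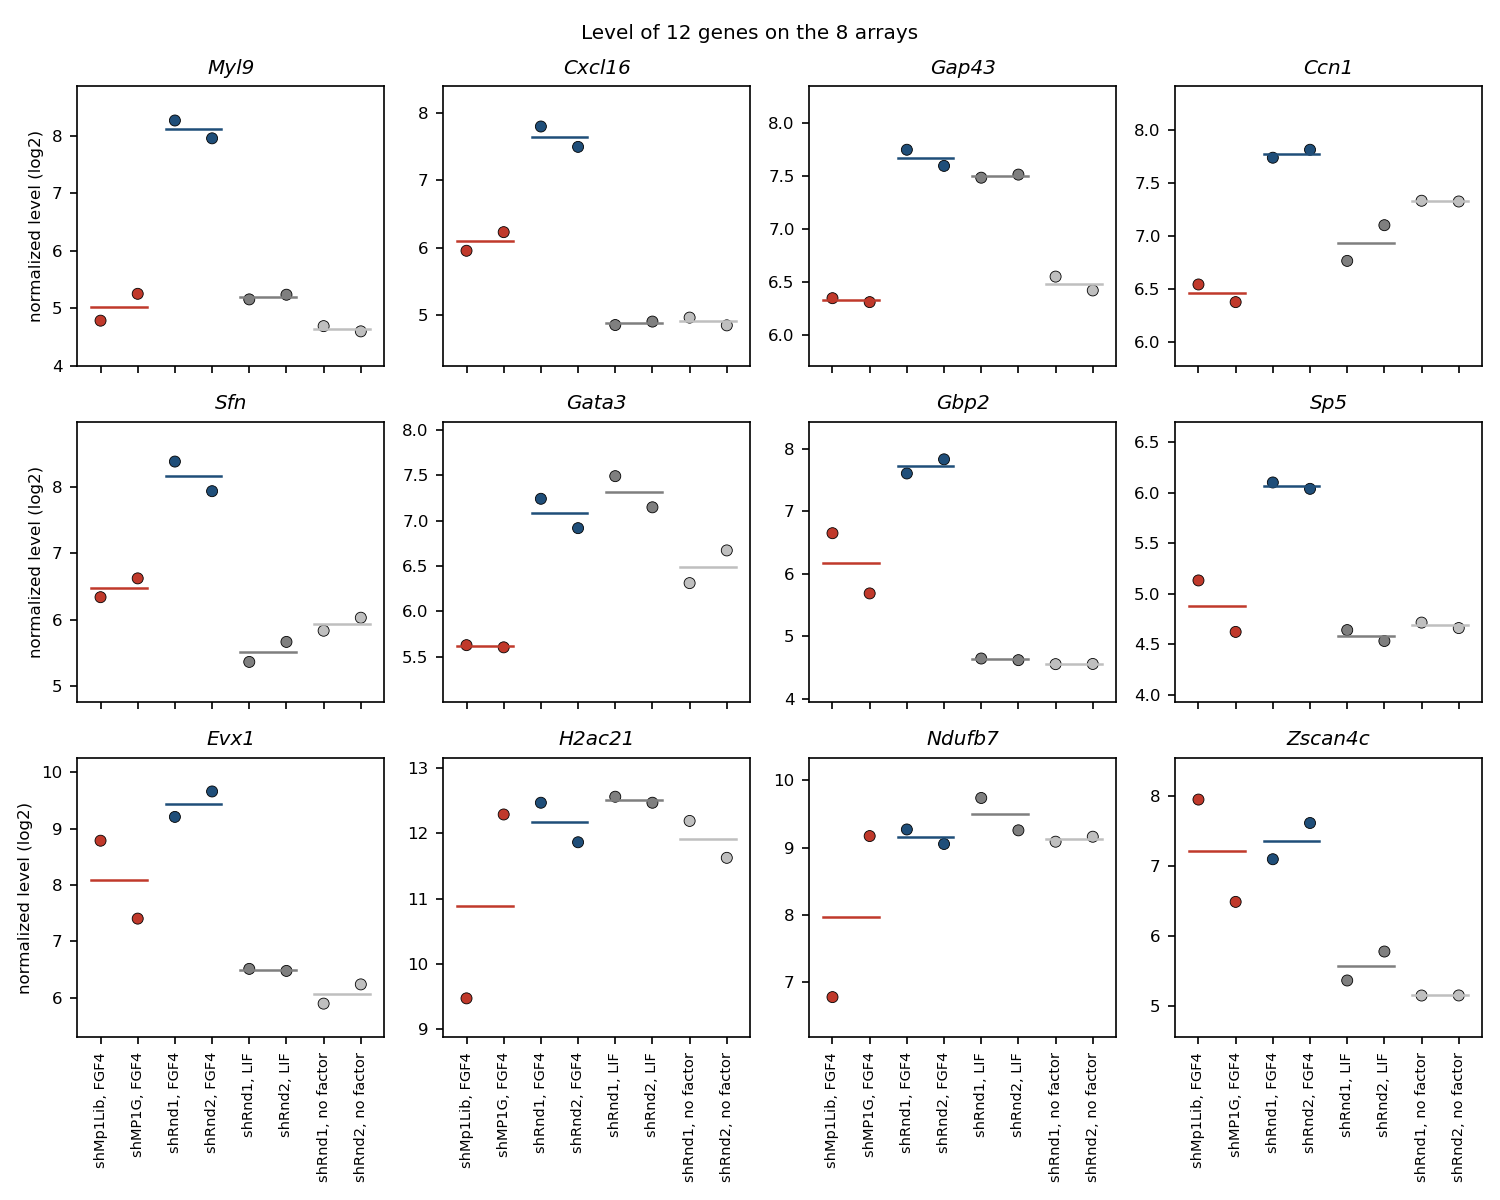
Normalized level (y axis, log2) of 12 genes on each of the 8 arrays (points), with a line at the mean of each group of 2 arrays; red, Mp1 shRNAs in FGF4; blue, control shRNAs in FGF4; greys, control shRNAs with LIF or no growth factor. Myl9, Cxcl16, Gap43, Ccn1, Sfn and Gata3 are low on both Mp1 arrays, while H2ac21 and Ndufb7 are low on the shMp1Lib array alone.

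Taken one shRNA at a time, most features that passed with each were higher than the controls, and none of those higher ones had a name. The named genes that passed with each were Myl9, Gap43, Gbp2 and Sp5, each lower than the controls. No feature passed in opposite directions. Myl9 and Sp5 were detected on the control arrays in FGF4 alone, so they entered the test through the group in which they are high. With shMP1G and no filter on dim probes, Sp5 (adjusted p = 0.0565), Gap43 (0.103) and Evx1 (0.116), which had passed with shMP1G, did not pass, while Myl9 and Gbp2 did. Gbp2, an interferon-inducible GTPase, had levels of 6.65 with shMp1Lib and 5.68 with shMP1G against 7.60 and 7.83 with the controls. It fell by 1.07 with shMp1Lib (adjusted p = 0.01) and by 2.03 with shMP1G (adjusted p = 0.0117), and the 2 shRNAs differed by 0.96 ± 0.22 (adjusted p = 0.0413). Sp5, a zinc finger transcription factor known as a direct target of Wnt signalling, had levels of 5.13 and 4.62 against 6.10 and 6.04. Its probe was not well above background on either Mp1 array, so it was at least 1.77-fold lower with shMp1Lib (adjusted p = 0.0132) and at least 1.52-fold lower with shMP1G (adjusted p = 0.0379). On the 4 arrays without FGF4 both genes were lower still or similar, at 4.55 to 4.64 for Gbp2 and 4.53 to 4.71 for Sp5. Since both single comparisons use the same 2 control arrays, they are not independent of each other.

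Promoter sequence was available for Myl9, Sp5 and Gbp2, and is shown because these genes were lower with each Mp1 shRNA. The RefSeq windows of build GRCm38.p6 run from 250 bases before to 50 bases after the gene's start, on the plus strand, at chr2:156775214-156775513 for Myl9, chr2:70474673-70474972 for Sp5 and chr3:142620413-142620712 for Gbp2. Capitals mark matches to 4 motifs searched on both strands: the CArG box bound by SRF, the GC box GGGCGG, the STAT site TTCNNNGAA and the TCF/LEF site CTTTGA.
Myl9: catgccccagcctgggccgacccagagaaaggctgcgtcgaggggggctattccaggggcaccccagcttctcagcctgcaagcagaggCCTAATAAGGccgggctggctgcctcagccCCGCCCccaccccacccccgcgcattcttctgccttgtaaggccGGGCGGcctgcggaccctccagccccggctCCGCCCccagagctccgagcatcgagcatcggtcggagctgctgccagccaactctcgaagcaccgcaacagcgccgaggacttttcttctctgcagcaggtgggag
Sp5: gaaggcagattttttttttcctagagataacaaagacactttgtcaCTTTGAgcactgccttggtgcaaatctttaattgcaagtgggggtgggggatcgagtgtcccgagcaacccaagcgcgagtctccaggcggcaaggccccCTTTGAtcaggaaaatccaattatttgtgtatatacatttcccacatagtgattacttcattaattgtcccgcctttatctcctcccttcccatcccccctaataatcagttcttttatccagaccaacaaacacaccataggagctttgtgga
Gbp2: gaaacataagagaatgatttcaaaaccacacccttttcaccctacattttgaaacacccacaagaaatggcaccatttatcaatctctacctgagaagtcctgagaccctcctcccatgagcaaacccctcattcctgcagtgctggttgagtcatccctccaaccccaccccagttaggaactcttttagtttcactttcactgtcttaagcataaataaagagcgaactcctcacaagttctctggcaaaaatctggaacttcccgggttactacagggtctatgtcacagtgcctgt
The Myl9 window held 1 CArG box at bases 90 to 99 and 3 GC boxes at bases 120 to 125, 164 to 169 and 194 to 199. The Sp5 window held 2 TCF/LEF matches, at bases 47 to 52 and 147 to 152, and the Gbp2 window held none of the 4 motifs. Of 32851 RefSeq windows of 300 bases, 1.63% held a CArG box, 35.7% a GC box, 8.3% a STAT site and 16% a TCF/LEF site. A match is a description of the letters and shows neither binding nor a cause.

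The other lower genes ranked first for the pair were picked among features with both Mp1 arrays below both controls. Their lack of overlap was thus fixed by the choice. Of all named features, 23.0% met that condition. None of the genes so picked, described here and in the next paragraph, passed as a pair. Sfn, the epithelial 14-3-3 sigma protein, had levels of 6.34 with shMp1Lib and 6.62 with shMP1G against 8.39 and 7.94 (difference -1.68 ± 0.23, adjusted p = 0.0553). Ccn1, a secreted matricellular protein induced by SRF and YAP, had levels of 6.54 and 6.38 against 7.74 and 7.81 (-1.31 ± 0.19, adjusted p = 0.0626). Another probe of Ccn1 did pass with shMP1G alone, with a difference of -1.58 and an adjusted p of 0.0423. Gata3, a transcription factor of trophoblast and surface ectoderm, had levels of 5.63 and 5.60 against 7.24 and 6.92 (-1.47 ± 0.22, adjusted p = 0.0729). These 3 genes fell with shMp1Lib alone (adjusted p from 0.00541 to 0.00917).

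Plac8, a cysteine-rich protein first described in placenta, had levels of 5.76 with shMp1Lib and 6.60 with shMP1G against 8.31 and 8.09 with the controls. Fgfbp1, a secreted carrier that releases FGFs from the matrix, had levels of 6.66 and 7.16 against 8.68 and 8.58. Egr1, an immediate early transcription factor induced by ERK, had levels of 5.96 and 5.77 against 7.05 and 6.85. For each of these genes the groups did not overlap, as the choice required, and the pair's adjusted p lay between 0.081 and 0.0946. Egr1 differs from the others on the arrays without FGF4, where it was higher than on any FGF4 array, at 7.86 to 7.93 with LIF and 8.73 to 8.82 with no growth factor. Krt19, a keratin of simple epithelia, was not well above background on either Mp1 array and was at least 1.51-fold lower (adjusted p = 0.0946). St3gal6, a sialyltransferase, and Lpar6, a receptor for lysophosphatidic acid, did not pass either (adjusted p = 0.101 and 0.103). Lpar6 had levels of 8.61 and 8.54 against 9.51 and 9.64.

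The named genes ranked first on the higher side differed little from the controls. Trim25, a ubiquitin ligase, had levels of 6.28 with shMp1Lib and 6.07 with shMP1G against 5.54 and 5.64 (difference 0.58 ± 0.17, adjusted p = 0.226), and rose with shMp1Lib alone (0.69, adjusted p = 0.0357). The other 7 (1700030J22Rik, Clip4, Ap1g1, Ttf1, Tshz3, Slc25a45 and Gm4861) had differences between 0.53 and 0.61 and adjusted p of at least 0.23 for the pair. Ttf1, Tshz3, Slc25a45 and Gm4861 were not well above background on either control array in FGF4, which bounds them at 1.06-fold to 1.24-fold or more. Larger rises were seen on probes without a name, singled out here after their values were seen. ILMN_2834379 had levels of 8.20 and 8.60 against 6.38 and 6.38 with the controls, and ILMN_2718920 had 7.48 and 7.95 against 5.82 and 5.80. Of unnamed probes that fell, ILMN_1231513 had 6.67 and 6.77 against 8.62 and 8.22, and ILMN_1230443 had 5.60 and 5.93 against 7.97 and 7.36 (adjusted p = 0.0389 for each of the 4).

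The shMp1Lib array alone differed far more from the controls than the shMP1G array alone. With shMp1Lib, 1219 features (8.64%) were higher and 1622 (11.5%) lower. Of the 8933 named features, 1297 (14.5%) fell and 40 (0.448%) rose. Of the 1219 higher features, 1165 (95.6%) had no name because their probe was outside the naming table. The spread for these tests comes from the control shRNA groups, and the lone Mp1 array is assumed to vary as they do. The count of 2841 was 330 without the shRnd1 array in FGF4, 1601 without the shRnd2 array in FGF4, 4319 without either LIF array and 1688 without either array with no growth factor. With arrays scaled by their medians it was 4228 and 72.7% of the calls were higher, against 42.9% in the main fit, where the median over all features was 0.09 and moved to 0.36.

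The named genes that fell most with shMp1Lib, besides Myl9, were mostly near the controls with shMP1G. H2ac21, a histone H2A gene whose near-identical copies its probe may not tell apart, had a level of 9.47 with shMp1Lib and 12.29 with shMP1G, against 12.47 and 11.86 with the controls. It fell by 2.70 with shMp1Lib (adjusted p = 0.00541). Pcbd2, a cofactor of HNF1 factors and pterin dehydratase, had 7.22 and 9.70 against 9.98 and 9.45, and fell by 2.49. Prf1, the pore protein perforin, had 7.20 and 10.02 against 9.88 and 9.90, and fell by 2.69 (adjusted p = 0.0203). Lypd2, a GPI-anchored protein of the Ly6 family, had 5.63 and 7.97 against 8.44 and 7.82, and fell by 2.50. Each of these 4 genes is thus low on the shMp1Lib array and within 0.2 of the control mean on the shMP1G array.

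Sct and Rbp7 were intermediate with shMP1G. Sct, the hormone secretin, had 7.19 with shMp1Lib and 9.14 with shMP1G against 10.35 and 9.74, and fell by 2.85 with shMp1Lib, while shMP1G gave -0.90 ± 0.33 (adjusted p = 0.438). Rbp7, a cellular retinol-binding protein, had 7.91 and 9.57 against 10.56 and 10.44, and fell by 2.59 with shMp1Lib, with -0.93 ± 0.25 (adjusted p = 0.248) for shMP1G. Plac8 fell by 2.44 with shMp1Lib and gave -1.60 ± 0.28 with shMP1G (adjusted p = 0.1).

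The 8 named genes that rose most with shMp1Lib changed by at most about 1 log2 unit. They were Trim23, Gcfc2, Msh3, Shoc2, Atf2, Twf1, Mybpc2 and Tbc1d24, with differences between 0.87 and 1.01 and adjusted p between 0.0214 and 0.043. Shoc2, a scaffold that activates RAF downstream of RAS, had levels of 6.21 with shMp1Lib and 5.05 with shMP1G against 5.04 and 5.49 (difference 0.95 with shMp1Lib, adjusted p = 0.043). Atf2, Trim23 and Tbc1d24 were not well above background on either control array in FGF4 and were at least 1.57-fold, 1.69-fold and 1.64-fold higher. None of the 8 passed without the shRnd1 array in FGF4, where their adjusted p lay between 0.0762 and 0.181.

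With shMP1G alone, 22 features (0.156%) were higher and 6 (0.0425%) lower, and 1317 (9.34%) had an unadjusted p under 0.05. The 5 named ones all fell: Myl9, Gbp2, Evx1, Sp5 and Gap43. Evx1, a homeobox gene of the primitive streak, had a level of 7.40 with shMP1G, 8.79 with shMp1Lib, and 9.21 and 9.66 with the controls, against 5.90 to 6.51 without FGF4. It fell by 2.03 with shMP1G (adjusted p = 0.0341), while shMp1Lib gave -0.65 ± 0.25 (adjusted p = 0.0972). None of the 5 passed when either control array in FGF4 was left out, which left a count of 0 over all features, and the count was 7 without either array with no growth factor.

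The 2 Mp1 shRNAs were compared with each other directly. With shMp1Lib, 53 features (0.376%) were higher and 882 (6.25%) lower than with shMP1G, and of the named features 682 (7.63%) were lower and 14 higher. Both sides of this test are lone arrays. The largest named differences on the lower side were in H2ac21 (-2.82), the lipoprotein component Apoc1 (-2.72), Fam25c (-2.64), the mitochondrial ribosomal protein Mrps21 (-2.58), Ndufs5-ps (-2.58) and Dpm3, a subunit of dolichol-phosphate mannose synthase (-2.56), with an adjusted p of 0.0136 for each. On the higher side they were in Zscan4c, a gene of cleavage-stage embryos and of rare ES cells (1.46, adjusted p = 0.0304), Evx1 (1.38), Gm5662 (1.36), Orc2, a subunit of the origin recognition complex (1.29, adjusted p = 0.0205), Reps1 (1.18) and Tfdp1, the DNA-binding partner of E2F factors (1.18). Zscan4c had levels of 7.95 with shMp1Lib and 6.49 with shMP1G, on either side of the controls at 7.09 and 7.61. The count of 935 rose to 1743 without either LIF array and dropped to 520 without either array with no growth factor.

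Genes of mitochondrial energy supply were the gene group with the largest shift on the shMp1Lib array among 29 lists described by counts and medians. Of 63 respiratory chain genes, 55 had a named probe and passed the filter on dim probes. Of these, 44 fell with shMp1Lib and 0 with shMP1G, against 14.5% of all named features with shMp1Lib. Their median difference was -1.29 with shMp1Lib and 0.21 with shMP1G, where the median of all named features was -0.04 for each. On the other arrays the same median lay between -0.14 (shRnd2 in FGF4) and 0.39 (shRnd1 with LIF). The control arrays in FGF4 are part of the mean they are set against. Array against array, the median was 0.28 for shRnd1 minus shRnd2 in FGF4 and -1.44 for shMp1Lib minus shMP1G. In a direct comparison 39 of the 55 were lower with shMp1Lib than with shMP1G, against 7.63% of all named features. Without the filter on dim probes no feature passed that direct comparison, so its count was 0 for this and every other list.

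Ndufb7, a subunit of complex I, illustrates the pattern, with levels of 6.78 with shMp1Lib and 9.17 with shMP1G against 9.27 and 9.05 with the controls. It fell by 2.38 with shMp1Lib (adjusted p = 0.00541), and the shMP1G difference was 0.01 ± 0.24. Ndufb9, also of complex I, had 8.40 and 10.59 against 10.67 and 10.54, and Ndufa2 had 10.16 and 12.33 against 12.52 and 11.96. Of 53 mitochondrial ribosomal genes measured of 54, 39 fell with shMp1Lib and 0 with shMP1G, with medians of -0.96 and -0.04, and 27 were lower with shMp1Lib than with shMP1G (0 without the filter). Mrps21, of the small mitochondrial subunit, had 8.09 with shMp1Lib and 10.67 with shMP1G against 10.75 and 10.14. Without the shRnd1 array in FGF4, 18 respiratory chain and 17 mitochondrial ribosomal genes passed with shMp1Lib, and without the shRnd2 array 40 and 30.

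Cytosolic ribosomal and proteasome genes shifted less, where 14.5% of all named features fell with shMp1Lib. Of 50 cytosolic ribosomal genes measured, 14 fell with shMp1Lib and 0 with shMP1G, with medians of -0.25 and 0.01. Rpl30 (-1.78), Rpl29 (-1.59) and Rps15 (-1.57) fell most with shMp1Lib. Of 28 proteasome genes measured, 7 fell with shMp1Lib, all subunits of the core particle, and 0 with shMP1G (medians -0.20 and -0.12). Without the shRnd1 array in FGF4, 3 cytosolic ribosomal and 0 proteasome genes fell with shMp1Lib. No member of the 13 glycolysis genes measured passed with either shRNA, and their medians were 0.10 and -0.14.

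**Figure D3:**
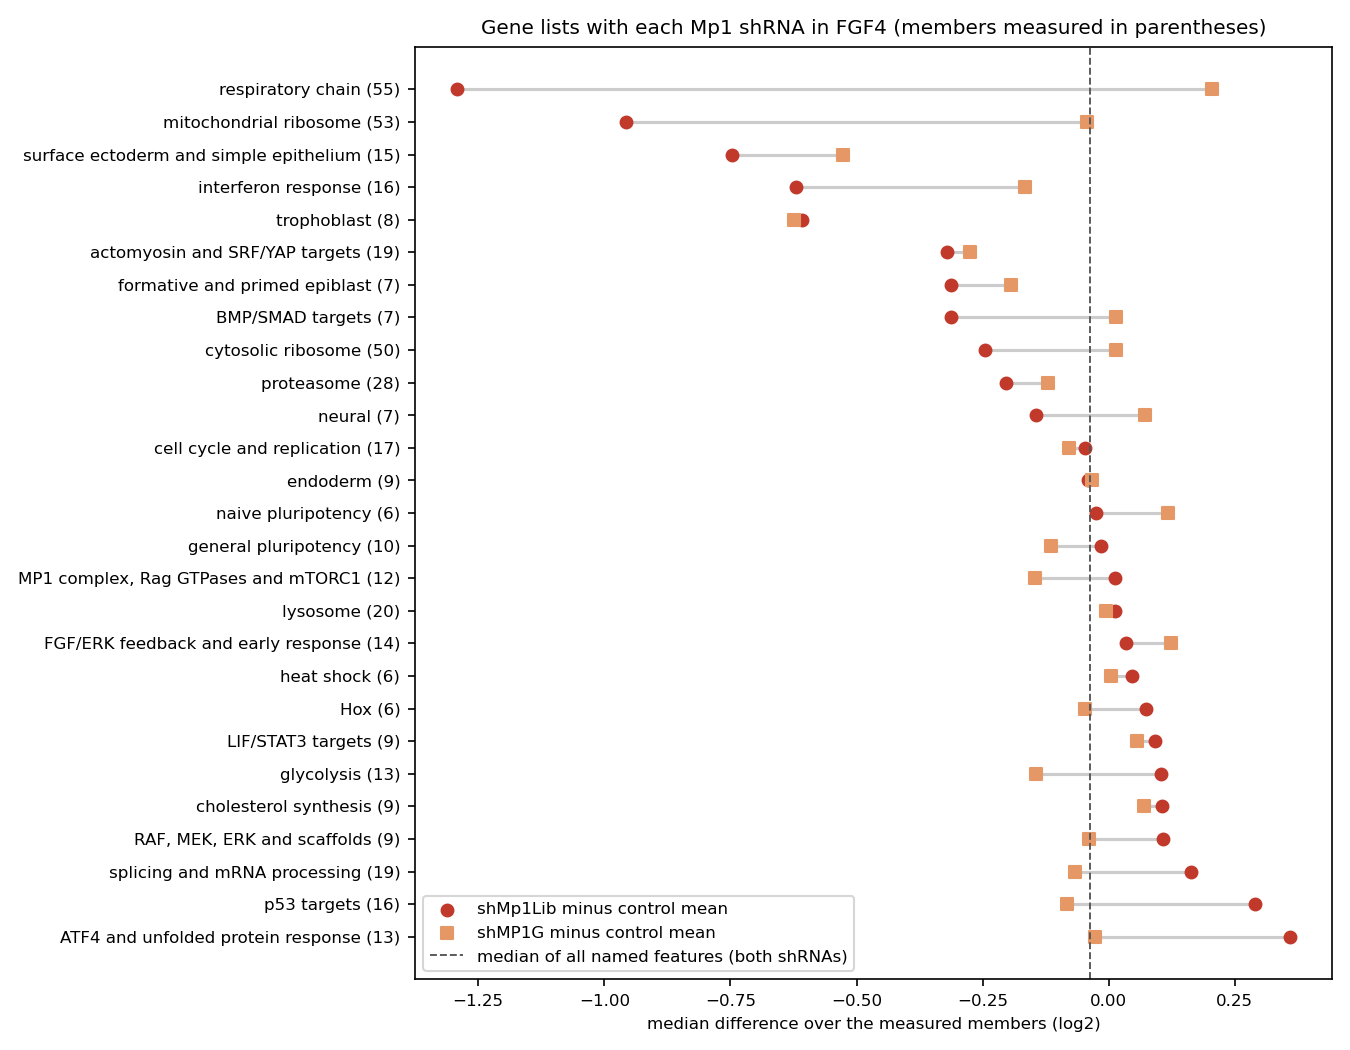
Median difference from the control shRNAs in FGF4 (x axis, log2) over the measured members of each gene list with at least 6 of them (y axis, number in parentheses), for shMp1Lib (circles) and shMP1G (squares), with the median of all named features as a dashed line. The shRNAs lie far apart for the respiratory chain (-1.29 and 0.21) and the mitochondrial ribosome (-0.96 and -0.04) and close together for trophoblast genes (-0.61 and -0.62).

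Epithelial, trophoblast and actomyosin lists had medians below 0 on both Mp1 arrays, though scaling by array medians moved the actomyosin median to -0.01 with shMp1Lib. Of all named features, 2056 (23.0%) had both Mp1 arrays below both control arrays in FGF4 and 1247 (14.0%) had both above. Of all 14103 features, named or not, 2619 had both below and 3597 both above. The named features thus lean to the lower side, unlike the whole. There is no test in these counts. The share of all named features that fell with shMp1Lib, 14.5%, stands beside the counts of these lists. Among the 15 measured genes that mark surface ectoderm or simple epithelium, 11 had both Mp1 arrays below both controls and 1 above, and the medians were -0.75 with shMp1Lib and -0.53 with shMP1G. With shMp1Lib 4 of the 15 fell (Sfn, Cldn3, Cldn7 and Krt19), and with shMP1G 0. The count of 4 was 2 without the shRnd1 array in FGF4, 7 without background correction, 8 with only the FGF4 arrays and 9 without either LIF array. Krt8, a keratin of the first embryonic epithelia, had levels of 10.25 with shMp1Lib and 10.10 with shMP1G against 11.26 and 11.25. Krt18, its partner, had 9.07 and 9.45 against 10.41 and 10.38. Neither passed with either shRNA, although the groups did not overlap. Msx1, a homeobox target of BMP signalling, had 9.18 and 8.87 against 9.93 and 9.70, and did not pass either.

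Within this list the 2 shRNAs were not alike for every member. Cldn3, a tight junction protein, had 6.25 with shMp1Lib and 7.53 with shMP1G against 7.76 and 7.71, and was lower with shMp1Lib than with shMP1G (difference -1.27 ± 0.21, adjusted p = 0.0155). Tfap2c, a transcription factor of trophoblast, germ cells and ectoderm, had 11.16 with shMp1Lib and 10.04 with shMP1G against 10.59 and 10.32, and was higher with shMp1Lib than with shMP1G (adjusted p = 0.038).

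Of 8 trophoblast genes measured of 15 listed, 6 had both Mp1 arrays below both controls and 1, Tead4, had both above, with medians of -0.61 and -0.62. Gata3, Phlda2, Rhox6 and Rhox9 fell with shMp1Lib and 0 with shMP1G, and 2 genes fell with shMp1Lib without the shRnd1 array in FGF4. Rhox9, a homeobox gene of a reproductive cluster on the X chromosome, had levels of 5.79 with shMp1Lib and 6.66 with shMP1G against 7.53 and 7.18, while the 4 arrays without FGF4 were at 10.26 to 10.95. The Mp1 arrays therefore lay further from the arrays without FGF4 than the controls did for this gene. The summed linear level of 5 trophoblast markers was 161 and 155 on the Mp1 arrays, 277 and 233 on the controls in FGF4 and 184 to 287 on the other arrays. Of those markers, Gata3 was detected, Cdx2 was detected on 1 array, and Eomes, Elf5 and Hand1 were detected on none.

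Of 19 measured genes of the actomyosin cytoskeleton and SRF or YAP targets, 7 fell with shMp1Lib (Myl9, Ccn1, Myl6, Tpm2, Tpm1, Myl12a and Tagln2) and 1, Myl9, with shMP1G. The medians were -0.32 and -0.28, and 9 of 19 had both Mp1 arrays below both controls. With arrays scaled by their medians the list's medians were -0.01 and -0.32, with 10 and 16 of the 19 below 0 and 6 and 1 that fell. Tpm1, a tropomyosin that coats actin filaments, had 10.63 with shMp1Lib and 10.46 with shMP1G against 11.56 and 11.51, and shMP1G gave -1.07 ± 0.19 (adjusted p = 0.106). Myl6, the essential myosin light chain, had 12.53 and 13.66 against 14.02 and 13.86, and was lower with shMp1Lib than with shMP1G (adjusted p = 0.0247). Other targets of SRF or YAP were less uniform. Ccn2, the sister gene of Ccn1, had 11.97 and 11.41 against 11.88 and 12.02, and Actb had 13.65 and 12.96 against 13.50 and 13.08. On these probes both genes were below the controls with shMP1G only. Another Ccn2 probe gave -0.25 with shMp1Lib and -0.67 with shMP1G. Without the shRnd1 array in FGF4, 2 of the 19 passed with shMp1Lib, and without the shRnd2 array 4.

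**Figure D4:**
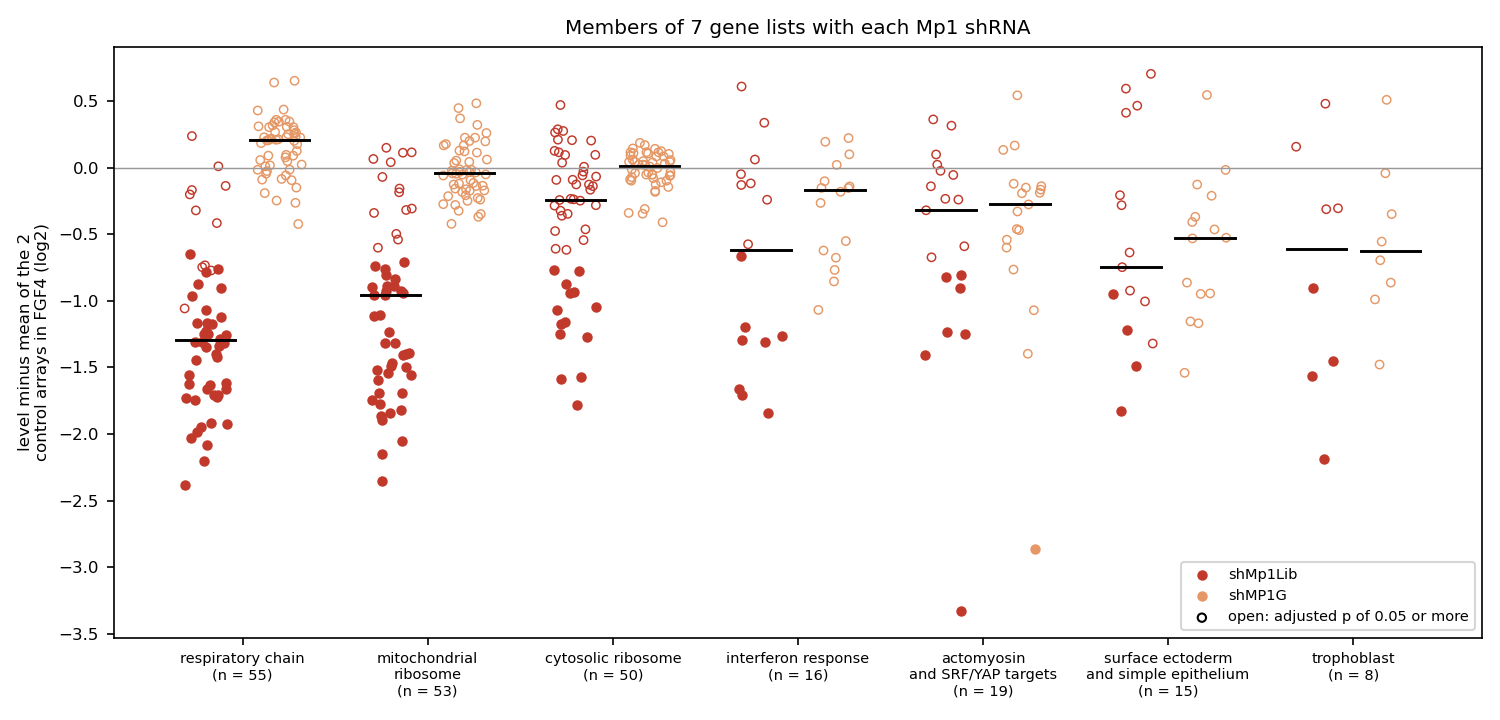
Difference of each measured member from the mean of the 2 control shRNA arrays in FGF4 (y axis, log2) for 7 gene lists (x axis), with shMp1Lib in red and shMP1G in orange; filled points have an adjusted p under 0.05 and black lines are medians. Most respiratory chain and mitochondrial ribosomal genes are filled and low with shMp1Lib, and Myl9 is the filled point with shMP1G.

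Measured readouts of FGF and ERK signalling had medians near the control level, with differences in single genes. Among all named features, 14.5% fell with shMp1Lib. Of 14 measured genes of FGF and ERK feedback and early response, 3 fell with shMp1Lib (Egr1, Junb and Phlda1) and 0 with shMP1G, and the medians were 0.03 and 0.12. None of the 3 passed with arrays scaled by their medians. Dusp4, a phosphatase that acts back on ERK, had levels of 9.72 with shMp1Lib and 9.34 with shMP1G against 9.59 and 9.71 with the controls, and 5.34 to 5.85 on the arrays without FGF4. Etv4, an ETS factor induced by FGF, had 9.73 and 9.63 against 9.40 and 9.58, and 6.34 to 7.25 without FGF4. Spred1 and Spry4, inhibitors of the pathway, also had both Mp1 arrays within the range of the controls or within 0.2 of it. Dusp6, Dusp7, Spry1, Etv1, Etv5 and Fosl1 had no named probe, and Spry2, Spred2, Egr2 and Ier2 did not pass the filter. Since probes outside the naming table were almost all higher with the Mp1 shRNAs, the medians can miss members that rose. In all, 3 of the 14 had both Mp1 arrays below both controls and 3 had both above. Egr1, Junb, Dusp2 and Ier3 differed most for the pair, and another Dusp2 probe gave -0.03 with shMp1Lib and -0.64 with shMP1G. Phlda1 was lower with shMp1Lib (6.49) than with shMP1G (7.79; adjusted p = 0.0192), with the controls at 7.31 and 7.07. Of 9 measured members of the RAF, MEK and ERK cascade, 1 rose with shMp1Lib (Shoc2) and 0 passed with shMP1G. Map2k1, which encodes MEK1, the kinase that binds MP1, had 8.14 and 7.71 against 7.57 and 7.60 (adjusted p = 0.0739 with shMp1Lib and 0.909 with shMP1G).

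Of 12 measured genes of the complex, the Rag GTPases and mTORC1, Lamtor1, Lamtor2, Lamtor4 and Mtor fell with shMp1Lib and 0 with shMP1G, and 1 of the 12 fell with shMp1Lib without the shRnd1 array in FGF4. Lamtor4 had levels of 10.05 with shMp1Lib and 11.91 with shMP1G against 12.23 and 11.96 (fell by 2.05, adjusted p = 0.00541). Lamtor2, which pairs with MP1 directly, had 8.68 and 11.04 against 10.81 and 10.26 (fell by 1.86, adjusted p = 0.00795). Lamtor1, the lipid anchor of the complex, had 9.50 and 10.30 against 10.53 and 10.48 (fell by 1.01, adjusted p = 0.014). Mtor fell by 1.01 on the probe used, while another Mtor probe gave 0.11. Lamtor2, Lamtor4 and Mtor were lower with shMp1Lib than with shMP1G (adjusted p from 0.0136 to 0.0294), and 0 were without the filter on dim probes. Rheb, the GTPase that activates mTORC1, had 11.39 on each Mp1 array against 11.50 on each control. Lamtor5 and Rragc had no named probe. Among all named features, 14.5% fell with shMp1Lib and 7.63% were lower with shMp1Lib than with shMP1G.

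Pluripotency genes with a named probe held few calls with either shRNA. Of 6 naive pluripotency genes measured, 0 passed with either shRNA, with medians of -0.02 with shMp1Lib and 0.12 with shMP1G. On the arrays without FGF4, set against the same control arrays, the same median was between 1.60 and 1.75. Klf4, a naive factor, had levels of 7.31 with shMp1Lib and 8.30 with shMP1G against 7.63 and 7.76 with the controls, and 9.69 to 10.35 without FGF4. Another Klf4 probe gave differences of 0.32 with shMp1Lib and 0.56 with shMP1G. Klf2 had 9.78 and 10.21 against 9.89 and 9.78, and 11.43 to 11.75 without FGF4. Tbx3 had 9.65 and 9.27 against 9.23 and 9.06, and 10.69 to 11.08 without FGF4. Other Tbx3 probes went both ways, with differences of -0.47, 0.46 and -0.13 with shMp1Lib and -0.74, 0.44 and -0.24 with shMP1G. For Klf4, Klf2 and Tbx3, both Mp1 levels on the probes used were below every level without FGF4. Of the naive genes measured, Dppa3, Tbx3, Klf2 and Prdm14 differed most for the pair, with Dppa3 first. Dppa3 also ranked first with shMp1Lib, and came after Klf4 with shMP1G. Esrrb, Klf5 and Nr0b1 did not pass the filter, and Tfcp2l1, Zfp42, Fgf4 and Tcl1 had no named probe. Since probes outside the naming table were almost all higher with the Mp1 shRNAs, the list medians can miss members that rose.

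Of 7 measured genes of the formative and primed epiblast, 1 fell with shMp1Lib (Cldn6, by 0.67, adjusted p = 0.0413) and 0 with shMP1G, with medians of -0.31 and -0.19, and 4 had both Mp1 arrays below both controls and 0 above. With arrays scaled by their medians the Cldn6 call was lost and the list medians were 0.06 and -0.18. The medians on the 4 arrays without FGF4 were -2.69 to -3.22. Fst, Car4, Cldn6 and Grhl2 differed most for the pair. Fst ranked first for the pair and with shMP1G, and Car4 first with shMp1Lib. Pou3f1 and Dnmt3b, given next, ranked below them. Pou3f1, the formative factor OCT6, had levels of 10.69 with each Mp1 shRNA against 10.82 and 10.73 with the controls, and 6.34 to 7.50 without FGF4. Dnmt3b, a de novo DNA methyltransferase, had 8.00 and 8.41 against 8.24 and 8.39, and 5.09 to 5.62 without FGF4. Car4, a carbonic anhydrase, had 11.12 and 11.39 against 11.92 and 11.96, and 4.51 to 6.47 without FGF4. Of 10 genes of general pluripotency, Lefty1 fell with shMp1Lib (by 1.00, adjusted p = 0.0338), 0 passed with shMP1G, and the other 9 did not pass with either. Lefty1 did not pass with arrays scaled by their medians. Fgf5 and Otx2 had no named probe, nor did Sox2, Nanog, Sall4, Trim28 and L1td1 of general pluripotency. Among all named features, 14.5% fell with shMp1Lib.

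Of 16 interferon response genes measured, 8 fell with shMp1Lib (B2m, Bst2, Ifi35, Ifitm1, Ifitm3, Oasl2, Psmb8 and Psmb9) and 0 with shMP1G, with medians of -0.62 and -0.17, and 9 had both Mp1 arrays below both controls. Psmb8, an immunoproteasome subunit, had 7.62 with shMp1Lib and 8.14 with shMP1G against 9.09 and 8.73, while Ifi35 was at least 2.24-fold lower with shMp1Lib. B2m, the light chain of MHC class I, had 7.69 and 9.38 against 9.65 and 9.41, and was lower with shMp1Lib than with shMP1G (adjusted p = 0.0136). In the direct comparison 4 of the 16 were lower with shMp1Lib than with shMP1G (B2m, Bst2, Ifitm1 and Ifitm3) and 0 were without the filter on dim probes. The median of shMp1Lib minus shMP1G was -0.11, or 0.09 with arrays scaled by their medians. Among all named features, 14.5% fell with shMp1Lib and 7.63% were lower with shMp1Lib than with shMP1G. Without the shRnd1 array in FGF4, 2 of the 16 fell with shMp1Lib, and without the shRnd2 array 6.

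The remaining lists held few calls. Among all named features, 14.5% fell with shMp1Lib, so a single call does not mark a list. Of 7 neural genes measured, Gap43, Nes and Crabp2 fell with shMp1Lib and Gap43 with shMP1G. The intermediate filament nestin (Nes) was not well above background on either Mp1 array and was at least 2.12-fold lower with shMp1Lib. Another Nes probe gave smaller differences, -0.55 with shMp1Lib and -0.16 with shMP1G. Of 7 BMP targets, Id1 and Id3, inhibitors of basic helix-loop-helix factors, fell with shMp1Lib by 0.81 and 0.93 (adjusted p = 0.0372 and 0.0376), while shMP1G gave 0.10 and 0.01. Of 17 cell cycle genes, Ccnd1, Ccnd2, Tyms and Cdkn2a fell with shMp1Lib, but not with arrays scaled by their medians. Other probes gave -0.71 and 0.45 for Ccnd1, -0.81 and 0.01 for Tyms, and -0.60 and -0.77 for Ccnd2 with shMp1Lib. One member each fell with shMp1Lib among 9 endoderm genes (Amn), 16 p53 targets (Fas), 13 genes of the ATF4 and unfolded protein response (Ddit3), 6 heat shock genes (Hspe1), 9 cholesterol synthesis genes (Ebp), 19 splicing genes (U2af1), 20 lysosomal genes (Cd63) and 9 LIF and STAT3 targets (Junb). None of these passed with shMP1G. The medians of the p53 and ATF4 lists were 0.29 and 0.36 with shMp1Lib against -0.08 and -0.03 with shMP1G. No member of 6 Hox or 3 fibroblast genes measured passed with either shRNA. Of 4 primitive streak genes measured, Evx1 fell with shMP1G and 0 with shMp1Lib.

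To set the shRNAs side by side without shared controls, each was subtracted from a different control array, which gives a description with no test. For shMp1Lib minus shRnd1 and shMP1G minus shRnd2, 1278 and 80 features were over 2-fold lower and 17 were lower in both, which is 1.33% of the first and 21.2% of the second, where the first held 9.06% of all features. For the opposite pairing, 935 and 75 were over 2-fold lower and 28 in both, 2.99% and 37.3%, where the first held 6.63% of all features. Higher in both were 50 features (6.79% and 27.9%) in the first pairing and 34 (5.91% and 30.4%) in the second, where the first difference held 5.22% and 4.08% of all features. Over 2-fold in opposite directions were 23 features in the first pairing and 2 in the second. Across the 14103 features, which are not independent replicates, Pearson's r between the differences was 0.082 and 0.418. By normalized level, 10 named genes were over 2-fold lower with both shRNAs under both pairings. They were Ccdc113, Ccn1, Cxcl16, Fgfbp1, Gap43, Gata3, Myl9, Nes, Plac8 and Sfn. Taken over both pairings, each Mp1 array meets both control arrays. Ccdc113 and Nes were not well above background on either Mp1 array. Against the control mean they were at least 1.61-fold and 1.82-fold lower with shMP1G, so a fall of over 2-fold is not shown for them. At 1.5-fold, the features lower in both numbered 138 and 220.

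The differences on the shMp1Lib array moved with the genomic span of the gene. Named features were put into 5 bins of nearly equal number by the span of the RefSeq gene, from 107 to 6497 bp in bin 1 to 57077 to 2241333 bp in bin 5. With shMp1Lib the median difference rose from -0.39 in bin 1 to 0.12 in bin 5, and the share that fell dropped from 34.1% to 4.2%. With shMP1G the medians lay between -0.07 and 0.00 in all 5 bins. The median level over all arrays was 8.01 in bin 1 and 6.52 in bin 5. Respiratory chain genes have a median span of 7177 bp and mitochondrial ribosomal genes 7588 bp, against 19493 bp for all named features with a span. Within bin 1, 35 of 46 genes of those lists fell with shMp1Lib (median -1.01), against 574 of the other 1740 (median -0.38). The part of span or level in the differences between the Mp1 arrays was not tested.

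**Figure D5:**
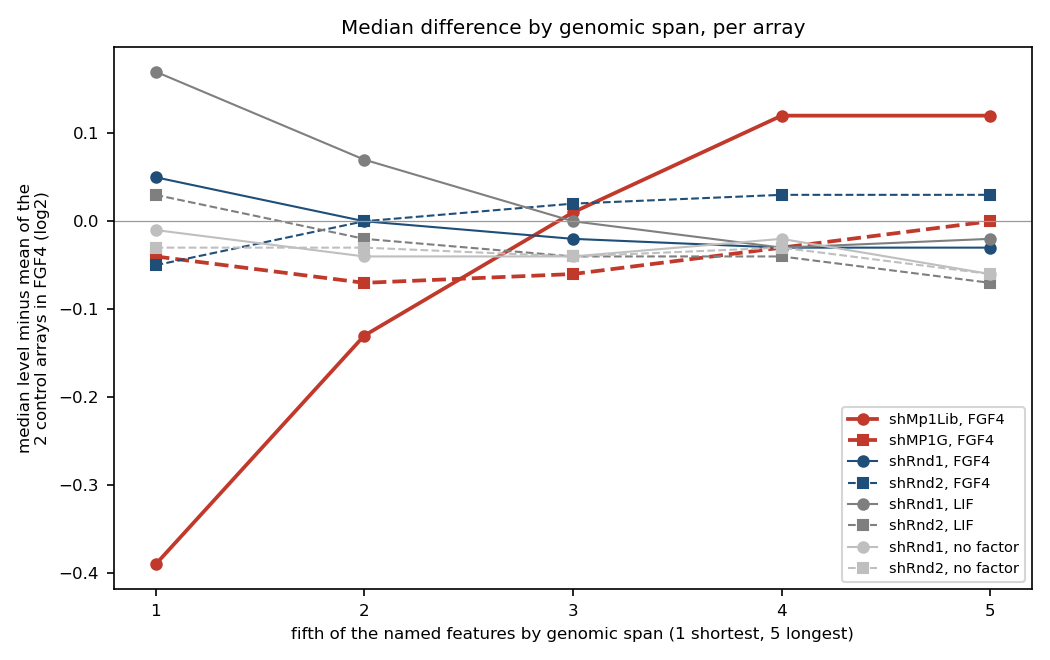
Median level minus the mean of the 2 control shRNA arrays in FGF4 (y axis, log2) over named features in 5 bins by genomic span (x axis, 1 shortest to 5 longest), with a line per array. The shMp1Lib line runs from -0.39 to 0.12, and the shMP1G line stays between -0.07 and 0.00.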

How the data were processed

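RNA of 8 samples was amplified with an Illumina TotalPrep kit and hybridised to Illumina arrays, per the labels' protocols. The deposited non-normalized table gives an intensity and a detection p-value for each of 45281 probes, per the file headers; the scanner software is not given in the sources used here. Among 362248 deposited intensity cells, 294271 lacked their decimal point. It was restored by digit count and, for 222817 cells, the detection p-value. The rule and the fits were tested on simulated data. The series' deposited value table (intensity, 42293 probes) carries probe IDs that did not match its values (5752 of 6529 bright rows matched 1 other probe, 0 the same ID), so it served as an unnamed alternative.

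Normalization used neqc of limma 3.58.1 (R 4.3.3; offset 16, quantile normalization, log2). A probe was kept if 2 or more arrays gave it a detection p-value below 0.05. Of several probes with 1 symbol, the one with the highest mean was taken. Symbols come from the platform annotation of probes in the value table: 32245 probes had 1 symbol, 17 several and 13019 none here, and 32170 matched RefSeq genes of GRCm38.p6. Linear models were fitted over all 8 arrays with lmFit and eBayes, two-sided, Benjamini-Hochberg adjusted at 0.05: 4 group means for the pair (4 residual and 4.18 prior degrees of freedom), and 5 group means for each Mp1 shRNA alone and their difference (3 and 5.19). All adjusted p-values are from limma. "At least" folds compare the detected group with the higher of the dim probe and the lowest signal well above background on each array.

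The genes named are those past the threshold for the pair, the 12 lower and 8 higher ranked first by p with both arrays on 1 side, the 8 largest calls per direction for each shRNA, the 6 largest for their difference, up to 4 members per list for the pair and 3 per shRNA, members of the MP1 complex and cell markers. List members beyond these were named after their values were seen. Members and lists were chosen with earlier results of these data known. The treatment note gives Rnd1 for both LIF samples while the titles give shRnd1 and shRnd2; titles were followed. The shRNA names link control arrays across conditions and do not pair the Mp1 arrays with controls.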

Additional observations from a re-analysis of the deposited data

Results flagged for a closer look

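These results stood out because the 2 Mp1 shRNAs, meant to give the same knockdown, differed from each other by the test of that difference. With shMp1Lib, 53 features were higher and 882 lower than with shMP1G. Of the respiratory chain genes 39 were lower, and of the mitochondrial ribosomal genes 27. The named genes were H2ac21 (-2.82, shMp1Lib minus shMP1G, log2), Apoc1 (-2.72), Fam25c (-2.64), Mrps21 (-2.58), Ndufs5-ps (-2.58) and Dpm3 (-2.56) on the lower side. On the higher side they were Zscan4c (1.46), Evx1 (1.38), Gm5662 (1.36), Orc2 (1.29), Reps1 (1.18) and Tfdp1 (1.18). Each side of the test is 1 array, so the shRNA and the array cannot be told apart. With groups of 2 arrays, no array could be tested as an outlier.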

How the results depend on the processing

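Counts of features called were 14 for the pair, 2841 for shMp1Lib alone, 28 for shMP1G alone and 935 for shMp1Lib against shMP1G. Alternatives that moved a count by over 1.5 times were as follows, and the cause was not tested. For the pair it was 4 with arrays scaled by medians, 53 with the value table, 2 with array weights and 0 with only the FGF4 arrays. For shMp1Lib it was 1736 with the value table (81.7% higher). For shMP1G it was 57 without background correction, 7 without the filter on dim probes and 57 with only the FGF4 arrays. For shMp1Lib against shMP1G it was 1698 without background correction (29.9% higher, against 5.67%), 416 with the value table (35.3%), 1543 with only the FGF4 arrays (25.5%) and 0 without the filter, where 5049 features had an unadjusted p under 0.05 by limma. Scaling by medians kept that count at 655, with 20.8% higher. Leaving out 1 array at a time gave 0 to 2841 for the pair, 330 to 4319 for shMp1Lib (9.09% to 53.1% higher), 0 to 34 for shMP1G and 520 to 1743 for their difference. With the shRNA name as a replicate block the counts were 14, 2823, 28 and 908. The shRNA names pair no Mp1 array with a control, and the block's correlation was -0.04. Of the named genes, 643 results under the alternatives kept their side of the threshold, 104 lost it, 10 gained it and 0 reversed. Among counts of list members, 189 stayed within 1.5 times and 32 moved. Scaling by medians moved the median over all features from 0.05 to 0.17 for the pair and from 0.09 to 0.36 for shMp1Lib, and left shMP1G at 0.02. Probes near background limit Lamtor3, Myl9, Sp5, Krt19 and Nes to bounds or no value.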

Other observations

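Replication-dependent histone genes, a group picked after its values were seen, were low on the shMp1Lib array. Of 47 measured H2A, H2B, H3 and H4 genes, 36 fell with shMp1Lib and 0 with shMP1G, and 28 were lower with shMp1Lib than with shMP1G. Among all named features, 14.5% fell with shMp1Lib and 7.63% were lower with shMp1Lib than with shMP1G. The median difference of the histone genes was -1.57 with shMp1Lib and -0.15 with shMP1G, against 0.23 and -0.23 for the shRnd1 and shRnd2 arrays in FGF4. The last 2 values mirror each other, because each control array is set against the mean of both. Array against array, the median was 0.46 for shRnd1 minus shRnd2 and -1.61 for shMp1Lib minus shMP1G. With arrays scaled by their medians, the median difference from the controls was -1.46 with shMp1Lib and -0.15 with shMP1G. Probes of near-identical histone genes may share signal, so single members are uncertain.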
